A study of Zea mays with 46 samples.

Results

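Chalcone synthase makes the first compound of the flavonoid pathway, naringenin chalcone, from coumaroyl-CoA and malonyl-CoA. Maize carries a duplicated pair of genes for this enzyme, c2 (colorless2, Zm00001d052673), known for its need in pigment formation of the kernel, and whp1 (white pollen1, Zm00001d007403), known together with c2 from the flavonols of pollen. P1, a MYB transcription factor, activates the flavonoid pathway in floral organs and so gives red phlobaphene pigments in pericarp and cob and C-glycosyl flavones such as maysin in silk. The 2 genes were taken by identifier, 2 of 39005 in the RNA-seq count table, and were followed through all 27 libraries.

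The RNA-seq part of the study held 9 groups of 3 libraries. Protoplasts, which are cells without walls, were made from the second leaf of 12-day-old etiolated B73 x A632 F1 seedlings. They were transformed with a P1-rr vector driven by 35S, a strong viral promoter that is active in most plant cells (35S:P1), or with an empty vector, and were harvested some 18 hours later. Pericarp, the outer kernel layer, was sampled 14 days after pollination (DAP) from P1-rr plants, whose allele gives red pericarp and cob, and from P1-ww plants, whose allele gives colourless ones, and the labels call this tissue kernels. Unfertilized silk at 0 DAP was sampled from P1-rr, P1-ww, the hybrid B73 x A632 F1 and the inbreds B73 and A632. The growth text names another hybrid for the silk, A632 x Mo17, and the label of the library was followed. Each silk or pericarp library combined 2 field plants. Both P1 stocks are labelled A619 inbred, so the allele and any other difference between the stocks cannot be told apart. The libraries held 18910941 to 54466743 counts each. Replicates differed far beyond counting error (chi-square over degrees of freedom 7.40 to 666), so the spread between libraries sets the precision. Levels are given in CPM, that is edgeR's library-size-scaled counts with TMM factors over all 27 libraries. The level of p1 itself and markers of the tissues were not checked here. Whether a bulk level reflects more cells that express a gene or more RNA per cell cannot be told apart.

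Both copies covered a wide range. By group means c2 was highest in 35S:P1 protoplasts at 3540 ± 2242 CPM, followed by F1 silk at 2044 ± 170 and P1-rr pericarp at 1092 ± 343 (SD, n = 3 each). P1-rr silk had 650 ± 158, A632 silk 327 ± 114 and B73 silk 81.3 ± 44.9 CPM of c2. The lowest c2 levels were 10.3 ± 0.766 CPM in P1-ww silk, 8.83 ± 2.48 in empty-vector protoplasts and 3.12 ± 0.340 in P1-ww pericarp. Among neighbours in this order, 35S:P1 protoplasts overlapped F1 silk, and P1-ww silk overlapped empty-vector protoplasts. All other neighbours were separated, with every library of the higher group above every library of the next. How many of all genes separate groups in this way was not counted, here or in the comparisons below.

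For whp1 the order was different. It was highest in 35S:P1 protoplasts at 2269 ± 2003 CPM, then in P1-rr pericarp at 819 ± 366, F1 silk at 451 ± 105 and P1-rr silk at 65.0 ± 25.5. The other groups lay low: P1-ww silk with 5.70 ± 0.400 CPM, B73 silk with 5.65 ± 3.64, P1-ww pericarp with 2.04 ± 0.206, empty-vector protoplasts with 1.97 ± 0.799 and A632 silk with 1.62 ± 0.972. Neighbouring groups overlapped at the top, where 35S:P1 protoplasts met P1-rr pericarp. In the low part P1-ww silk overlapped B73 silk, and P1-ww pericarp, empty-vector protoplasts and A632 silk overlapped in turn. A632 silk thus stood above B73 silk for c2 and last of all groups for whp1.

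**Figure D1:**
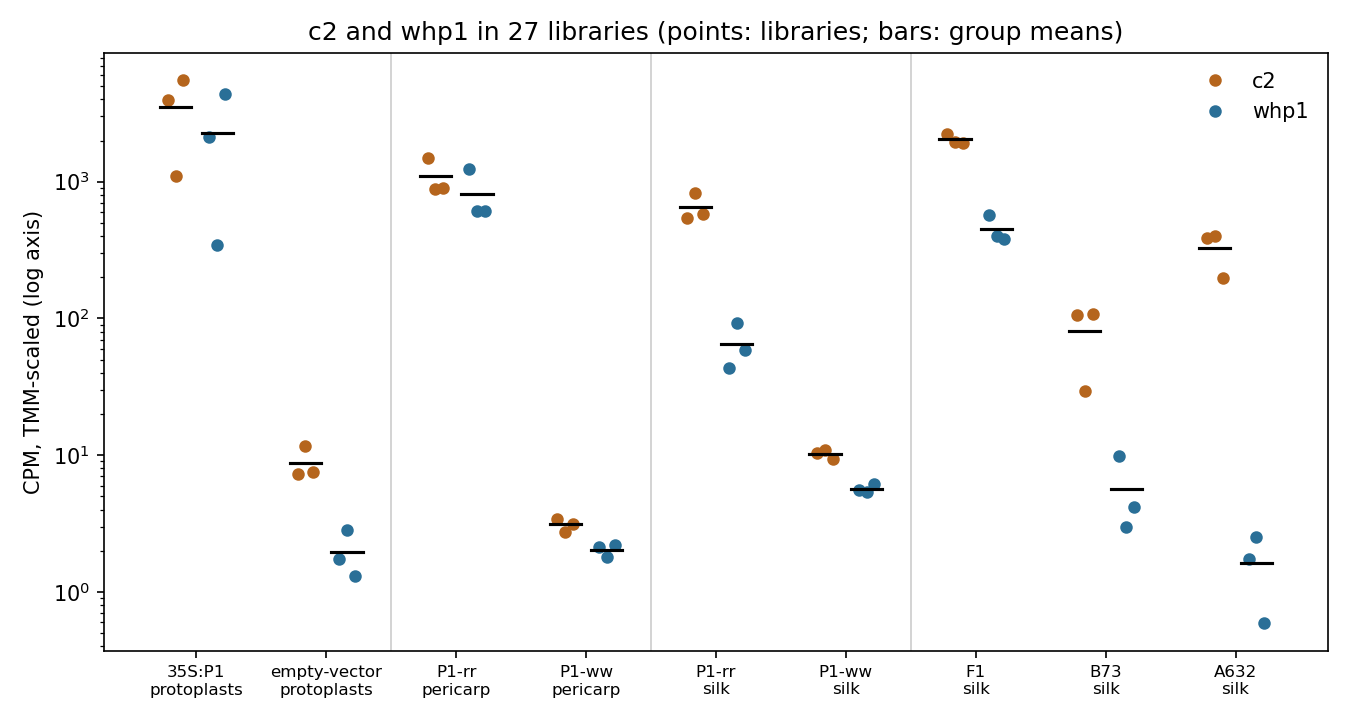
Level of c2 and whp1 in every library, in TMM-scaled CPM on a log axis, by group; points are libraries and bars are group means. Both genes stand high in 35S:P1 protoplasts, P1-rr pericarp and F1 silk, while A632 silk has 327 CPM of c2 on average and 1.62 CPM of whp1.

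The first comparison asked what 35S:P1 does to the 2 genes in leaf cells, where both were otherwise low. c2 had 3984, 1109 and 5527 CPM in the 3 libraries with 35S:P1, against 7.26, 11.7 and 7.54 CPM with the empty vector. whp1 had 2116, 347 and 4345 CPM with 35S:P1, against 1.74, 2.85 and 1.3 CPM with the empty vector. The groups did not overlap for either gene, and 35S:P1 replicate 2 was the lowest and replicate 3 the highest treated library for both. c2 rose by 8.74 ± 0.99 SE on the log2 scale (427-fold, edgeR adjusted p = 0.0389) and whp1 by 10.30 ± 1.28 SE (1257-fold, edgeR adjusted p = 0.0457). Of all 25127 genes tested, 0.139% were called higher, and the 2 changes ranked 13th for c2 and 3rd for whp1 from the highest. The pair took up 0.511, 0.102 and 0.975% of all counts in the libraries with 35S:P1, against 0.000581, 0.000938 and 0.000784% in those with the empty vector. Counting error was small beside this spread, with a 95% Wilson interval of 0.101 to 0.103% in 35S:P1 replicate 2. Such intervals cover counting error only.

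Protoplast libraries that carry 1 replicate number deviated together. With that number as a block the log2 changes were 8.5 ± 0.69 SE for c2 (edgeR adjusted p = 0.000245) and 9.75 ± 0.97 SE for whp1 (edgeR adjusted p = 0.000621), and 1577 genes were called in place of 35. Without the block the calls were lost when any of 4 libraries was left out, while the changes kept their direction. Without 35S:P1 replicate 1 the log2 changes were 8.66 for c2 and 10.35 for whp1, both with edgeR adjusted p = 0.171. Without empty-vector replicate 1 they were 8.59 (adjusted p = 0.397, edgeR) and 10.19 (0.488). Without empty-vector replicate 2 they were 8.94 (adjusted p = 0.198, edgeR) and 10.61 (0.201). Without empty-vector replicate 3 they were 8.71 (adjusted p = 0.0889, edgeR) and 10.13 (0.115).

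The P1 alleles were compared in pericarp, where the red pigment of P1-rr forms. c2 had 1488, 884 and 905 CPM in the P1-rr libraries, against 3.43, 2.76 and 3.16 CPM in the P1-ww libraries. whp1 had 1242, 607 and 609 CPM in P1-rr, against 2.12, 1.81 and 2.2 CPM in P1-ww. Neither gene overlapped between the alleles, and P1-rr replicate 1 was the highest library for both. The rise was 8.48 ± 0.31 SE on the log2 scale for c2 (356-fold, edgeR adjusted p = 2.47e-05) and 8.67 ± 0.40 SE for whp1 (407-fold, edgeR adjusted p = 6.2e-05). In this comparison 5.7% of 22209 tested genes were called higher, and c2 and whp1 ranked 9th and 8th of them by size of the rise.

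In silk the same alleles gave rises of unequal size. c2 had 539, 831 and 578 CPM in P1-rr silk, against 10.4, 11.0 and 9.44 CPM in P1-ww silk. whp1 had 43.1, 92.9 and 59.1 CPM in P1-rr silk, against 5.53, 5.42 and 6.16 CPM in P1-ww silk. All P1-rr libraries lay above all P1-ww libraries for both genes, and P1-rr replicate 2 was the highest for both. c2 rose by 5.98 ± 0.47 SE (63.0-fold, edgeR adjusted p = 2.75e-06) and whp1 by 3.51 ± 0.45 SE on the log2 scale (11.4-fold, edgeR adjusted p = 3e-04). Here 5.87% of 25250 tested genes were called higher, and the rises ranked 30th for c2 and 122nd for whp1.

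**Figure D2:**
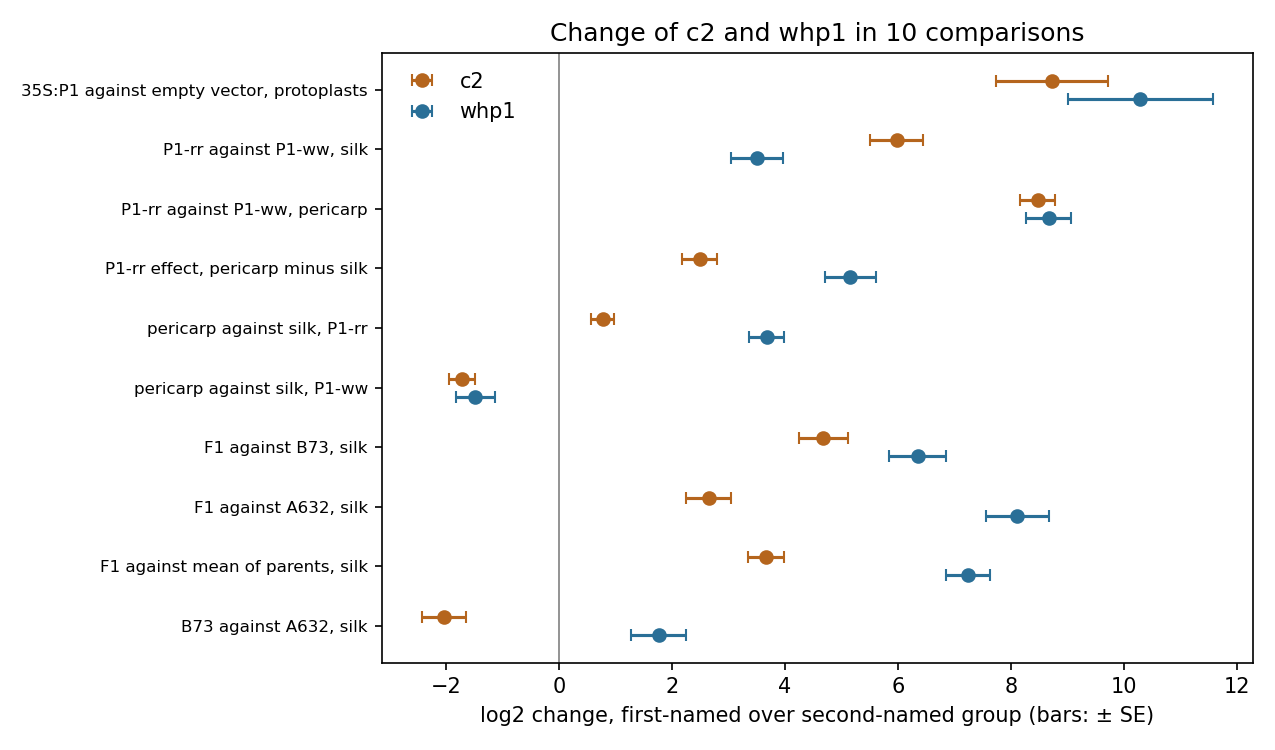
Log2 change of c2 and whp1 in each of 10 comparisons, first-named over second-named group, with bars of 1 SE on either side from the edgeR fits. The changes lie close together for P1-rr in pericarp (8.48 and 8.67) and far apart for F1 against A632 (2.65 and 8.12), and have opposite signs between B73 and A632 (-2.03 and 1.77).

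The effect of P1-rr was larger in pericarp than in silk for both copies. By the interaction term, fitted on all 12 libraries of the P1 stocks, the difference on the log2 scale was 2.50 ± 0.31 SE for c2 (edgeR adjusted p = 0.000739) and 5.16 ± 0.46 SE for whp1 (edgeR adjusted p = 9.06e-05). Of 24364 tested genes, 6.14% were called with a more positive effect in pericarp. With all 27 libraries in the fit the difference for c2 was 2.47 and no longer called (edgeR adjusted p = 0.083).

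The tissues differed in opposite ways in the 2 stocks. In P1-rr plants pericarp stood above silk, by 0.78 ± 0.20 SE on the log2 scale for c2 (edgeR adjusted p = 0.00376) and by 3.68 ± 0.31 SE for whp1 (12.8-fold, edgeR adjusted p = 2.36e-07). In P1-ww plants pericarp stood below silk, with log2 changes of -1.72 ± 0.23 SE for c2 (edgeR adjusted p = 1.97e-05) and -1.48 ± 0.35 SE for whp1 (edgeR adjusted p = 0.00171). These are common events, since 37.7% of tested genes were called higher in P1-rr pericarp than in P1-rr silk, and 38% lower in P1-ww pericarp than in P1-ww silk. The c2 difference between P1-rr tissues was small, and it was 0.51 without P1-rr pericarp replicate 1 (edgeR adjusted p = 0.0156). With all 27 libraries in the fit it was 0.75 (edgeR adjusted p = 0.175), and the whp1 difference in P1-ww plants was -1.48 (edgeR adjusted p = 0.0533). Pericarp and silk were also taken at different stages, and stage and tissue cannot be told apart.

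The hybrid was set against B73 and A632 in silk, its parents by the label of the library. By the growth text, B73 would not be a parent. c2 had 2239, 1961 and 1931 CPM in F1 silk, against 107, 29.5 and 108 CPM in B73 and 385, 400.3 and 196 CPM in A632. whp1 had 571, 402 and 379 CPM in F1 silk, against 9.80, 3.00 and 4.14 CPM in B73 and 1.74, 2.52 and 0.589 CPM in A632. Every F1 library lay above every library of either parent for both genes. The share of all genes for which this holds was not counted.

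Against B73, c2 was higher in F1 silk by 4.68 ± 0.44 SE (25.7-fold, edgeR adjusted p = 2.95e-06) and whp1 by 6.35 ± 0.50 SE on the log2 scale (81.6-fold, edgeR adjusted p = 7.26e-07). Against A632, c2 was higher by 2.65 ± 0.40 SE (6.28-fold, edgeR adjusted p = 0.000136) and whp1 by 8.12 ± 0.56 SE (278-fold, edgeR adjusted p = 1.28e-07). Against the parental mean, taken in log2, the rises were 3.67 ± 0.32 SE for c2 (edgeR adjusted p = 2.46e-06) and 7.23 ± 0.39 SE for whp1 (edgeR adjusted p = 3.6e-08). These comparisons share the F1 libraries. The share of 25250 tested genes called higher in F1 silk was 22.4% against B73, 23.8% against A632 and 23.6% against the parental mean. Against that mean whp1 ranked 2nd and c2 248th from the highest.

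Between the inbreds the copies went opposite ways. c2 was lower in B73 silk than in A632 silk, with a log2 change of -2.03 ± 0.39 SE (4.09-fold, edgeR adjusted p = 0.000617), and its libraries did not overlap. whp1 was higher in B73 silk, by 1.77 ± 0.49 SE (3.40-fold, edgeR adjusted p = 0.00775), again with no overlap. Differences between the inbreds were common, with 53% of 25250 genes called in either direction. The whp1 difference was 1.12 without B73 replicate 1 (edgeR adjusted p = 0.0524), and with only the 6 compared libraries in the fit it was 1.80 (edgeR adjusted p = 0.0576). Reads were placed on the B73 genome, and whether a divergent A632 copy of either gene lowered its count was not tested.

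To compare the copies directly, whp1 counts were divided by c2 counts in each library. A change in this ratio does not depend on library size or on the length of the transcripts, though its absolute value is not corrected for length. The ratio was 0.673 to 0.835 in P1-rr pericarp, 0.616 to 0.697 in P1-ww pericarp and 0.494 to 0.652 in P1-ww silk. It was 0.313 to 0.786 in 35S:P1 protoplasts, 0.173 to 0.244 in empty-vector protoplasts and 0.196 to 0.255 in F1 silk. It was 0.0799 to 0.112 in P1-rr silk, 0.0384 to 0.102 in B73 silk and 0.00300 to 0.00630 in A632 silk. Silk alone thus spanned nearly the whole range, with P1-ww at its upper end and A632 at its lower.

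**Figure D3:**
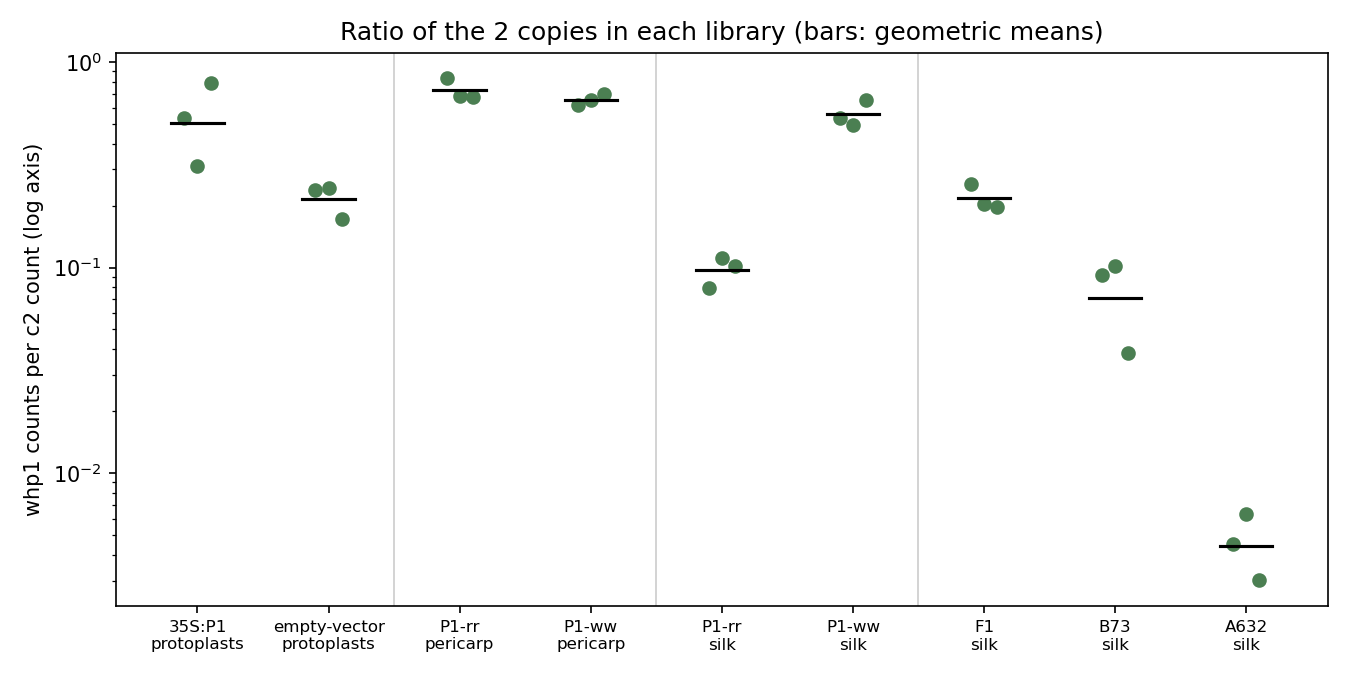
Counts of whp1 per count of c2 in each library, on a log axis, by group; points are libraries and bars are geometric means. The ratio is 0.673 to 0.835 in P1-rr pericarp, 0.0799 to 0.112 in P1-rr silk and at most 0.00630 in A632 silk.

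This ratio was next compared within each of the 3 systems that vary P1. With 35S:P1 in protoplasts the log2 ratio was -0.98 ± 0.67 against -2.20 ± 0.28 with the empty vector, a difference of 1.22 ± 0.42 SE toward whp1 (exact two-sided permutation test p = 0.1). In silk it was -3.37 ± 0.25 in P1-rr against -0.85 ± 0.21 in P1-ww, a difference of -2.52 ± 0.19 SE toward c2 (exact permutation p = 0.1). In pericarp it was -0.46 ± 0.17 in P1-rr against -0.60 ± 0.09 in P1-ww, a difference of 0.15 ± 0.11 SE with overlapping libraries (exact permutation p = 0.3). With 3 libraries against 3 the smallest p this test can give is 0.1, which the protoplast and silk comparisons reached. With the pairing of protoplast libraries the smallest possible is 0.25, the exact permutation p found for them. The sum of the 3 differences, -1.15, had an exact permutation p = 0.386 over 8000 arrangements within systems, and it adds differences of opposite sign.

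The systems were then set against each other, in tests added after the data were seen. Libraries were permuted within each system, and p-values were adjusted over 3 pairs. The null of these tests is no shift in either system. A shift in silk alone can therefore give a small p, and the p-values do not measure whether the shifts differ. The shift of the log2 ratio with P1-rr was 2.67 more positive in pericarp than in silk (exact permutation p = 0.015, adjusted 0.0225). That of 35S:P1 protoplasts was 3.74 more positive than that of P1-rr silk (exact permutation p = 0.005, adjusted 0.015). This p is the smallest possible with 400 arrangements. With protoplast labels swapped only within a replicate number, as their pairing asks, this p was 0.0125 (exact permutation, 160 arrangements, adjusted 0.0225), the smallest possible. Protoplasts and pericarp differed by 1.07 (exact permutation p = 0.15, adjusted 0.15, and 0.3 with the pairing), a test that does not show that they are alike.

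The ratio was also compared between tissues, which differ in stage as well, and between the hybrid and its parents by label. In P1-rr plants the log2 ratio was -0.46 ± 0.17 in pericarp and -3.37 ± 0.25 in silk, a 7.50-fold higher ratio with no overlap (exact permutation p = 0.1, the smallest possible). In P1-ww plants it was -0.60 ± 0.09 in pericarp and -0.85 ± 0.21 in silk, a difference of 0.24 ± 0.13 SE with overlap (exact permutation p = 0.2). In F1 silk the log2 ratio was -2.20 ± 0.20 and in the 6 parent libraries -5.81 ± 2.27, a difference of 3.61 ± 0.93 SE (exact permutation p = 0.0238, of 84 arrangements). The 6 parent libraries pool 2 inbreds that did not overlap in this ratio. Their SD, the SE and the p therefore mix the hybrid with the difference between the inbreds. F1 silk was not tested against B73 alone in this ratio. Every F1 library lay above every B73 and A632 library in this ratio. The call was lost without any 1 F1 library (exact permutation p = 0.107 each, differences of 3.49 without replicate 1, 3.65 without replicate 2 and 3.68 without replicate 3). It was also lost without any 1 A632 library (exact permutation p = 0.0714 each), with differences of 3.21 without replicate 1, 3.31 without replicate 2 and 3.10 without replicate 3. Between the parents the log2 ratio was -3.81 ± 0.77 in B73 and -7.81 ± 0.52 in A632, a 16.0-fold higher ratio in B73 (exact permutation p = 0.1, the smallest possible).

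The copies are close in sequence, and how reads that fit both were counted is not given in the sources used here, so counts of 1 copy may include reads of the other. A632 silk bounds this in 1 direction. There whp1 had 59, 83 and 18 counts in replicates 1 to 3, beside 13057, 13183 and 5991 counts of c2. That is 0.450% of the counts of both (95% Wilson interval 0.349 to 0.580%), 0.626% (0.505 to 0.775%) and 0.300% (0.190 to 0.473%). Reads of c2 counted as whp1 were no more than these shares in these libraries, and whether the shares hold for other genotypes was not tested. Reads of whp1 counted as c2 have no such bound in these libraries, since the whp1 count was at most 0.835 of the c2 count in any of them.

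Within groups the lowest or the highest library was often the same for both copies. In 7 of 9 groups the same library was the lowest for both genes, and in 6 of 9 the same library was the highest. How often this holds for other pairs of genes was not counted. The largest spread was among 35S:P1 protoplasts, where the highest library exceeded the lowest 4.98-fold for c2 and 12.5-fold for whp1. P1-ww silk was the tightest for whp1, with a ratio of highest to lowest of 1.14, and for c2 this ratio was 1.16 in both F1 silk and P1-ww silk. The copies share each library, so this order is a description of the libraries.

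**Figure D4:**
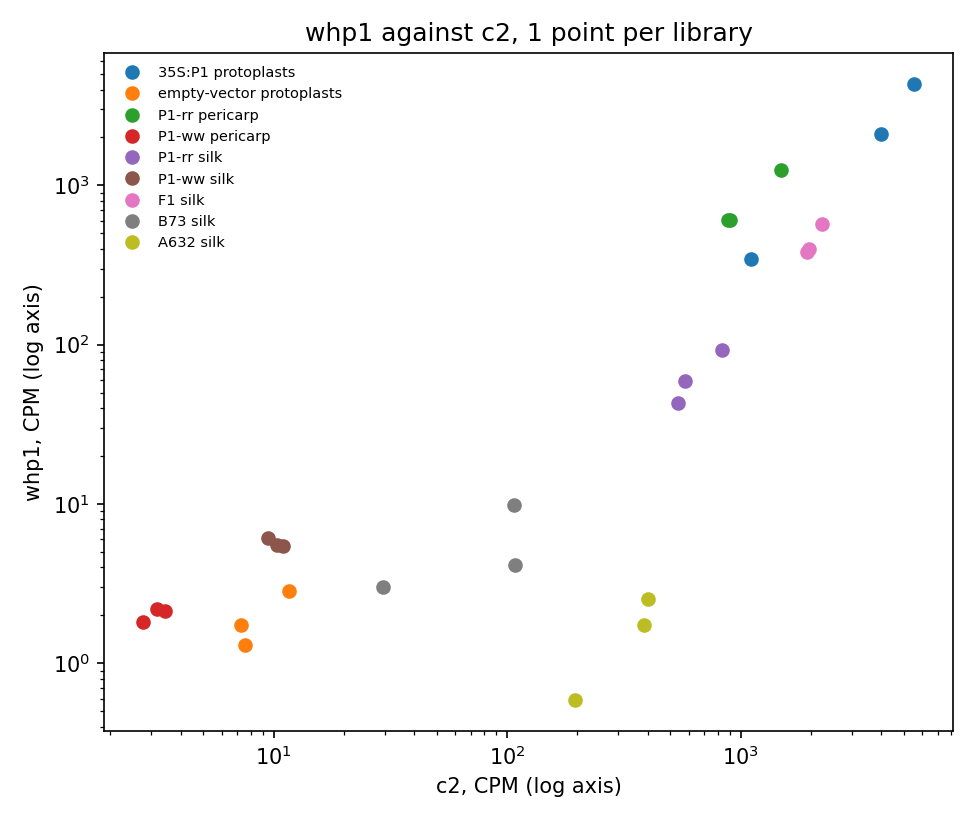
Level of whp1 against c2 in CPM, both on log axes, with 1 point per library coloured by group. Libraries of A632 silk combine 196 to 400.3 CPM of c2 with 0.589 to 2.52 CPM of whp1, where B73 silk has 29.5 to 108 CPM of c2 and 3.00 to 9.80 CPM of whp1.

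The genes whose pattern was most like that of each copy were sought over the 27 libraries, by Pearson's r of log2 CPM with 28419 other genes. For c2 the nearest were Zm00001d037784 (r = 0.96, Spearman's rho 0.93) and Zm00001d047252 (r = 0.96, rho 0.93). For whp1 the nearest were Zm00001d022546 (r = 0.93, rho 0.92) and Zm00001d021490 (r = 0.89, rho 0.77). The copies correlated with each other at r = 0.82 (rho 0.83), which put whp1 18th in the list of c2 and c2 10th in the list of whp1. Over the 9 group means the 2 nearest were Zm00001d041763 and Zm00001d037784 for c2, and Zm00001d022546 and Zm00001d048099 for whp1. In these lists whp1 was 22nd for c2 and c2 was 16th for whp1, again at r = 0.82. These values describe 9 groups of 3 libraries that share tissue and depth, and no test was made of them.

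The levels of the genes nearest over the 27 libraries resembled those of c2 and whp1 only in part. These genes were picked by r in the same libraries, so likeness in level follows from the choice. Zm00001d037784 averaged 1102 ± 912 CPM in 35S:P1 protoplasts against 6.11 ± 2.37 with the empty vector, and 1285 ± 75.0 CPM in F1 silk against 85.7 ± 44.1 in B73 and 74.9 ± 29.7 in A632. Zm00001d047252 averaged 621 ± 362 CPM in 35S:P1 protoplasts against 0.567 ± 0.168 with the empty vector, and 1083 ± 29.7 CPM in F1 silk against 72.3 ± 25.2 in B73 and 66.2 ± 32.2 in A632. For both of these genes the B73 and A632 libraries overlapped, where those of c2 did not. In P1-rr plants Zm00001d047252 was higher in silk, at 427 ± 85.6 CPM, than in pericarp, at 203 ± 83.6 CPM, while c2 was higher in pericarp. Zm00001d022546 averaged 1097 ± 382 CPM in P1-rr pericarp against 107 ± 12.9 in P1-ww pericarp, but in silk it averaged 330.0 ± 30.6 CPM with P1-rr and 280.0 ± 38.6 CPM with P1-ww, and these libraries overlapped. It was lowest after P1-ww pericarp in A632 silk, at 157 ± 2.52 CPM, the group where whp1 was last. Zm00001d021490 averaged 67.0 ± 18.7 CPM in 35S:P1 protoplasts against 14.1 ± 6.91 with the empty vector. Its silk libraries of B73 (13.4 ± 2.54 CPM) and A632 (15.5 ± 0.731 CPM) overlapped, where those of whp1 did not.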

How the data were processed

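RNA-seq of 9 groups, 3 libraries each, was used. The submitters' processing notes list bcl2fastq 2.20.0, FastQC, Trimmomatic, HISAT2 2.0.4 and Bowtie2 2.3.4.1, with B73 RefGen_v4 as the genome build and without the role of each tool. Sequencing was single-end at 50 nt, per the labels' protocols. The deposited file holds raw counts per gene and library made by the authors, with no normalization. Which tool counted the reads, whether by strand, and how it treated reads with several places is not given in the sources used here.

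Counts were fitted with edgeR 4.0.16 in R 4.3.3 (filterByExpr, TMM, quasi-likelihood test, two-sided, Benjamini-Hochberg adjustment over all genes tested, threshold 0.05). Both genes passed the filter in every fit. Protoplasts and pericarp were fitted alone, the 15 silk libraries together, and tissue contrasts on all 12 libraries of the P1 stocks. Standard errors come from the change and its F statistic. The log2 ratio of whp1 to c2 used 0.5 added counts and exact permutation over libraries. The fits were also run on simulated counts, with independent libraries and changes smaller than the largest seen here. That run did not cover paired libraries.

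The replicate numbers pair the protoplast libraries: deviations from the group means correlated across genes at 0.39, 0.51 and 0.73 for libraries with the same number, and at most at 0.20 for others. This pairing comes from the data, and no other pair of groups met it. The protoplast libraries are described as triplicates with no word on separate plants, so their p-values measure the spread between libraries, which may be technical. Alternatives were DESeq2 1.42.0, its size factors, no filter, other libraries in the fit, the replicate block, single libraries left out, the copies summed, and other added counts. The 2 genes and all lists were chosen with earlier results of these data known, and the names c2 and whp1 came with that choice. The nearest genes whose levels are given are the 2 with the highest r over the 27 libraries. The 16 peak lists and a list of other pathway genes were not used here: the reference table paired 0 identifiers of the count table with symbols.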

Additional observations from a re-analysis of the deposited data

Results flagged for a closer look

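The rise with P1-rr differed between pericarp and silk for both genes by the interaction term: by 2.50 on the log2 scale for c2 (edgeR adjusted p = 0.000739) and by 5.16 for whp1 (edgeR adjusted p = 9.06e-05). The direction was the same in all 3 P1-rr libraries of each tissue. The shift of the whp1 to c2 log2 ratio with P1-rr differed by 2.67 between pericarp and silk (exact permutation p = 0.015, adjusted 0.0225 over 3 pairs of systems). It differed by 3.74 between 35S:P1 protoplasts and P1-rr silk (exact permutation p = 0.005, adjusted 0.015, and 0.0125, adjusted 0.0225, with protoplast libraries paired by number). Before adjustment, each of these p-values for protoplasts and silk is the smallest its test can give. These permutation tests were added after the data were seen, and their null is no shift in either system. The silk shift alone can therefore give a small p. In silk all 3 P1-rr libraries had a lower ratio than all P1-ww libraries, and in protoplasts all 3 libraries with 35S:P1 had a higher ratio than all with the empty vector. A cause of these differences was not tested.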

How the results depend on the processing

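Of 272 edgeR or DESeq2 values under alternatives, 256 kept their direction and their side of the threshold. These values are not independent, since the fits share libraries and the summed row of both copies was entered once for each gene. The ratio tests of 3 libraries against 3 cannot pass it and say nothing of stability. With the copies summed to 1 row, B73 against A632 was -1.94 (edgeR adjusted p = 0.000807), which reverses the sign for whp1. This sum, in which c2 has most counts, was below whp1 alone in every comparison but P1-rr in silk (5.48 beside 3.51). It was 2.93 beside 8.12 for F1 against A632, 4.87 beside 6.35 against B73 and 3.90 beside 7.23 against the parental mean. It was 3.08 beside 5.16 for the interaction, 1.45 beside 3.68 for P1-rr tissues (0.78 for c2) and 9.17 beside 10.30 for 35S:P1. The gaps were smaller for P1-rr in pericarp (8.56 beside 8.67) and P1-ww tissues (-1.63 beside -1.48). With only the groups compared in the fit, whp1 was 1.80 between B73 and A632 (edgeR adjusted p = 0.0576). With the replicate block in silk, where the numbers pair no libraries, c2 was -2.12 (edgeR adjusted p = 0.057) and whp1 1.85 (edgeR adjusted p = 0.0752) between B73 and A632, and the F1 ratio difference was 3.61 (exact permutation p = 0.25, the smallest that 3 pairs allow). Outside protoplasts the block changed no other call of these genes. With all 27 libraries fitted together, 3 calls were lost: 2.47 for the c2 tissue difference in the P1-rr effect, 0.75 for c2 between P1-rr tissues and -1.48 for whp1 between P1-ww tissues. Leaving out single libraries gave 8.22 to 9.17 for c2 and 9.35 to 10.81 for whp1 in protoplasts, 1.12 to 2.26 for whp1 between B73 and A632, and 3.10 to 4.11 for the F1 ratio difference. Counts of called genes over the whole table ran from 0 to 2342 beside 35 in protoplasts (657 with DESeq2), 410 to 5330 beside 3140 for P1-rr in silk, 839 to 4713 beside 2878 in pericarp, and 240 to 4195 beside 2902 for the interaction. In silk the lowest were 7187 beside 13376 between the inbreds, 4539 beside 11925 for F1 against A632, 3880 beside 10733 against B73 and 3307 beside 10272 against the parental mean. The cause of these ranges was not tested. Scaled by library total only, 3 low group levels moved by more than 1 SD: c2 to 6.30 CPM in empty-vector protoplasts and 11.1 CPM in P1-ww silk, and whp1 to 6.18 CPM in P1-ww silk. Depth limits whp1 where it is low: its counts were 18 to 83 in A632 silk, 41 to 61 in empty-vector protoplasts and 40 to 46 in P1-ww pericarp.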
